A study of Mus musculus with 24 samples.

Results

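The collagen gene family was taken as every probe whose gene symbol reads Col, a number, the letter a and a number with nothing after it, in the platform annotation or in the authors' summary table, whatever the case. The rule gave 98 of the 45281 probes of the array, for 43 of the 20175 named genes. Of these probes, 91 were found by the platform's symbol and 7 through the authors' table only. The arrays measured total RNA of the left ventricle of 24 male mice of a mixed genetic background, aged 27 to 33.5 weeks, with 1 heart per array. The KO mice carried a cardiac-specific knockout of EP4, the prostaglandin E2 receptor encoded by Ptger4, and their labels divide them by ejection fraction (EF), the share of its blood that the ventricle expels at each beat. The 6 KO low EF hearts had an EF of 13.7 to 34.0%, the 7 KO high EF hearts 45.9 to 76.4%, and the 11 wild-type (WT) control hearts 71.4 to 86.1%. Neither the promoter of the recombinase nor its presence in WT mice is stated in the labels.

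Collagens are built from 3 chains wound into a triple helix, and the classes differ in what the helices form. Fibrillar collagens, chiefly types I and III in the heart, make the tensile fibres between muscle bundles and are secreted mostly by fibroblasts. Type IV collagen forms the sheet-like network of the basement membrane around cardiomyocytes and capillaries. FACIT collagens (fibril-associated collagens with interrupted triple helices) sit on the surface of fibrils, short-chain type VIII collagen forms lattices in vessel walls and injured tissue, and type VI collagen forms beaded filaments that join cells to fibres.

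The promoters of members from several classes that rose in the KO hearts are shown so that the sequence can be set beside the values. They are the 250 bases before the annotated transcription start of Col8a1, Col8a2, Col1a2, Col3a1 and Col6a1, from RefSeq on GRCm38.p6, each written 5′ to 3′ in the direction of its gene. Capitals mark every match, on either strand, to 5 motifs that were searched: GGGCGG (the GC box), CCAAT (the CCAAT box), TATAAA (the TATA box), CAGAC (a core that Smad proteins can bind) and TGANTCA (the AP-1 motif). The windows are chr16:57754738-57754987 (minus strand) for Col8a1, chr4:126286544-126286793 (plus strand) for Col8a2, chr6:4505368-4505617 (plus strand) for Col1a2, chr1:45311288-45311537 (plus strand) for Col3a1 and chr10:76726045-76726294 (minus strand) for Col6a1.
Col8a1: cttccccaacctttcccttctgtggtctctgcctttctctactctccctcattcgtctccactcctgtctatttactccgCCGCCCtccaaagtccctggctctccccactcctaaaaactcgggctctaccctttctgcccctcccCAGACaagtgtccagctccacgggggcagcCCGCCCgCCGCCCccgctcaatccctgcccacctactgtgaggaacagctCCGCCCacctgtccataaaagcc
Col8a2: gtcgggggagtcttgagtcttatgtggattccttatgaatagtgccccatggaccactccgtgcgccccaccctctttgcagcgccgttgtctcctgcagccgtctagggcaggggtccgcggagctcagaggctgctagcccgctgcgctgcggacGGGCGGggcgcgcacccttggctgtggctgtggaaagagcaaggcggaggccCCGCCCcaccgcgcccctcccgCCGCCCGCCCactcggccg
Col1a2: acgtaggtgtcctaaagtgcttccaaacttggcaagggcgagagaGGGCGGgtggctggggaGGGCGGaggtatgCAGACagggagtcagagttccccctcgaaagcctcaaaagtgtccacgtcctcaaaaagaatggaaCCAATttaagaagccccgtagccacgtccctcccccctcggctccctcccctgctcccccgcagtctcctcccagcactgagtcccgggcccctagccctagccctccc
Col3a1: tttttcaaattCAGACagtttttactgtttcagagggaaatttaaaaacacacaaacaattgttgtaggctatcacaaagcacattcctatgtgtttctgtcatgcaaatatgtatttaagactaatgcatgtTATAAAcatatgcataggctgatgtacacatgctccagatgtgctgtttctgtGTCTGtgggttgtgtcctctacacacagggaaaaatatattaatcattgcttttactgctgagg
Col6a1: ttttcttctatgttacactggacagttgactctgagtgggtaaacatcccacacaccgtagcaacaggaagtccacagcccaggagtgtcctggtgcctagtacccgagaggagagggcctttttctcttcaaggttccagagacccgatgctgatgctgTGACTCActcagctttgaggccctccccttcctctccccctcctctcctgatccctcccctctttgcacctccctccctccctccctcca
The Col8a1 and Col8a2 windows each held 4 copies of GGGCGG, counting both strands, and 2 of the copies in Col8a2 overlap. The window of Col6a2, a beaded filament gene, also held 4, and that of Col10a1, the third short-chain gene, held none. The Col1a2 window held 2 copies of GGGCGG, 1 CCAAT and 1 CAGAC, whereas the Col3a1 window held TATAAA and 2 copies of CAGAC and no GGGCGG. The Col6a1 window held 1 TGANTCA and no match to the other 4 motifs. Windows were found for 34 of the 43 collagen genes and for 25 of the 33 that were tested (below, those with a probe above the filter on dim probes). Among those 25 genes, 18 held GGGCGG, and among all 34 there were 21, against 32.7% of all 32851 promoter windows. Of the 25, CCAAT was found in 11 (33.8% of all windows), CAGAC in 13 (42.2%), TATAAA in 2 (12.4%) and TGANTCA in 1 (6.75%). The 25 genes had passed the filter on dim probes, whereas the 32851 windows were not filtered in that way. A collagen gene was counted if any of its windows matched (37 windows for the 34 genes), whereas the shares are of single windows. All are matches of letters only, and binding was not measured.

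Values below are log2 intensities after background correction and quantile normalization, on which the array median is 6.77. A probe was tested if it lay above its array's median on at least 6 arrays, and 56 of the 98 collagen probes did, for 33 genes. The other 42 probes never exceeded 7.70, and 10 genes had no tested probe: Col10a1, Col13a1, Col17a1, Col19a1, Col24a1, Col28a1, Col6a4, Col6a5, Col6a6 and Col9a3. Each of the 33 genes lay above the median on at least 1 WT array, but 5 of them (Col2a1, Col22a1, Col4a3, Col5a2 and Col7a1) did so on only 1 to 4 and passed through the KO arrays. Counts over the tested genes therefore leave out members that were dim everywhere and hold some that passed where they were high. Each gene stands by its brightest tested probe, and a gene was called if its p-value, adjusted by Benjamini-Hochberg over all 25425 tested probes, was under 0.05 in limma. Levels of different probes cannot be compared with each other, and in whole tissue more collagen RNA per cell and more cells that make it cannot be told apart.

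5 arrays stood apart and touch the collagen values. KO high EF replicate 11 had a median correlation of 0.778 with the other arrays, against 0.968 to 0.986 for each of the other 23. On it, 3 collagen probes that were bright on every other KO high EF array lay below the array's own unnormalized median of 106. The Col3a1 probe had an unnormalized intensity of 23.9 there, against 1210 to 3220 on the other KO high EF arrays and 222 to 496 on WT arrays. The Col5a1 probe had 23.7, against 2020 to 5640 and 1000 to 1560. A further Col14a1 probe had 16.9, against 286 to 517 and 123 to 218. The other 4 arrays were WT replicates 8 to 11, which carried RNA of atrial muscle genes: Myl7, the atrial myosin light chain, was at 9.82 to 12.52 there, against 5.93 to 6.61 in the 7 other WT hearts. Sln was at 9.28 to 12.66 in those 4 WT hearts, against 5.97 to 6.87 in the others, and Myl4 at 11.60 to 14.15, against 7.61 to 8.56. KO high EF replicate 11 also had Myl7 at 10.23 and Myl4 at 11.59, with Sln at 5.83, while the other 12 KO hearts had Myl7 at 6.41 to 7.00. The Ptger4 probe that passed the filter was not called in KO low EF hearts (-0.04 ± 0.14, adjusted p = 0.901) or KO high EF hearts (0.20 ± 0.13, adjusted p = 0.338) against WT hearts, and its place relative to the deleted part was not used here. Collagen results are given with all 24 arrays, and without these arrays where that changes them. For the lists of other genes only replicate 11 was left out.

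In KO low EF against WT hearts, 23 of the 33 collagen genes rose and 0 fell, where 15.2% of all 13683 genes tested rose and 13.5% fell. The median difference over the 33 collagens was 0.81 on the log2 scale (range -0.21 to 2.60), and over all genes it was 0. In KO high EF against WT hearts, 18 collagens rose and 0 fell, where 10.8% of all genes rose and 6.58% fell, with a median of 0.43. With no filter, 23 of all 43 collagens rose in KO low EF hearts (9.55% of all genes rose and 8.57% fell) and 16 in KO high EF hearts (6.47% rose and 3.85% fell). At an unadjusted p under 0.05, 1 collagen (Col11a2) was lower in KO low EF hearts and 0 were lower in KO high EF hearts. The 2 comparisons share the WT arrays. 17 genes were called in both, 6 (Col22a1, Col4a3, Col4a4, Col5a1, Col5a3 and Col8a2) in KO low EF hearts alone and 1 (Col2a1) in KO high EF hearts alone. A call in 1 group alone is not a difference between the KO groups, which is tested further on. Every one of the 23 genes was higher in KO low EF than in WT hearts within each of the 3 array label prefixes, read as chips, that hold both groups, and every one of the 18 was higher in KO high EF hearts within each of 4. This is a description only, since the same arrays chose the genes. Without KO high EF replicate 11, 23 genes rose and Col11a2 fell in KO low EF hearts (20.3% of all genes rose and 18.6% fell), and 19 rose in KO high EF hearts (11.8% rose and 10.4% fell). Without the 4 WT hearts with atrial markers, 22 rose in KO low EF hearts (13.5% of all genes rose and 11.8% fell) and 17 in KO high EF hearts (8.67% rose and 4.74% fell). Without those hearts and replicate 11, 23 rose and 1 fell in KO low EF hearts (19.2% rose and 17.2% fell), and 19 rose in KO high EF hearts (10.7% rose and 8.79% fell). In 17 of the 33 genes every KO low EF heart lay above every WT heart, where 8.02% of all genes did so. In 8 genes every KO high EF heart did (3.02%), and in 10 without replicate 11 (3.87%), the 2 added being Col3a1 and Col5a1.

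**Figure D1:**
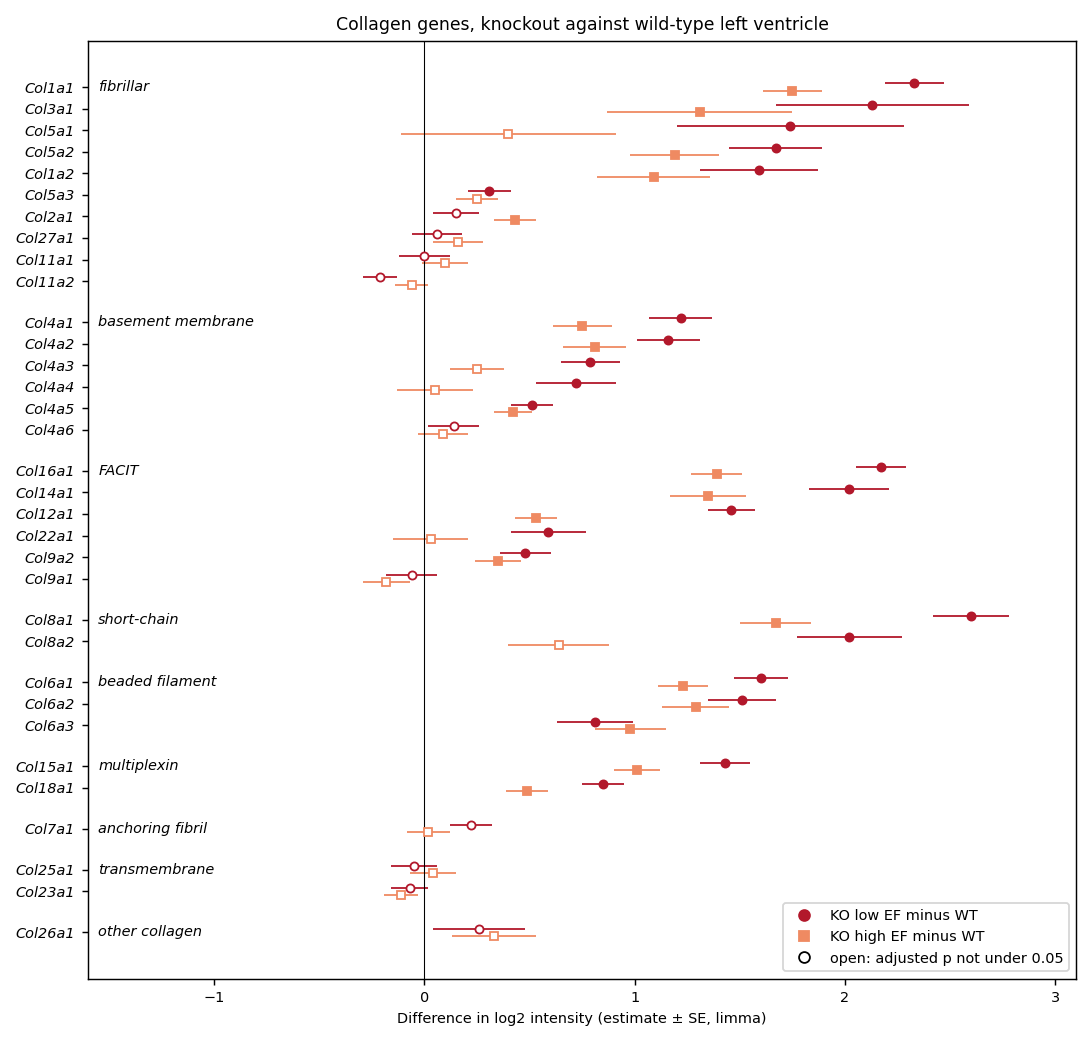
Difference in log2 intensity from WT hearts (x axis, limma estimate ± SE) for the 33 tested collagen genes, grouped by class, with circles for KO low EF and squares for KO high EF hearts and open symbols where the adjusted p is not under 0.05. The short-chain, beaded filament and multiplexin genes all lie right of 0 in both groups, and the fibrillar class splits into 5 genes above 1.5 in KO low EF hearts and 5 below 0.5.

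The fibrillar class had 10 tested genes of 11 on the array, and its members moved unequally. In KO low EF hearts 6 rose, with a class median of 0.95, and in KO high EF hearts 5 rose, with a median of 0.42. Without replicate 11 the fibrillar median in KO high EF hearts was 0.68, with 6 rising, and in KO low EF hearts 6 rose and 1 fell (median 0.97). Col1a1 and Col1a2 encode the chains of type I collagen, the main load-bearing collagen of the heart. Col1a1 ranged from 12.00 to 12.51 in KO low EF hearts (median 12.19), from 11.15 to 12.23 in KO high EF hearts (median 11.62) and from 9.45 to 10.29 in WT hearts (median 9.95). Every KO heart lay above every WT heart. It was 5.03-fold higher in KO low EF hearts (log2 difference 2.33 ± 0.14 SE, adjusted p = 2.16e-11) and 3.37-fold higher in KO high EF hearts (1.75 ± 0.14, adjusted p = 5.27e-09). Col1a2 ranged from 8.30 to 10.32 in KO low EF hearts (median 9.66), from 7.76 to 9.97 in KO high EF hearts (median 9.26) and from 6.98 to 8.53 in WT hearts (median 7.97). Here 1 KO low EF heart, replicate 2, and 1 KO high EF heart fell within the WT range. The difference was 1.59 ± 0.28 in KO low EF hearts (adjusted p = 9.08e-05) and 1.09 ± 0.27 in KO high EF hearts (adjusted p = 0.00578).

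Col3a1 encodes type III collagen, which mixes with type I in the same fibres. It ranged from 10.24 to 11.06 in KO low EF hearts (median 10.63), from 6.01 to 11.30 in KO high EF hearts (median 10.39) and from 7.88 to 8.94 in WT hearts (median 8.65). The value of 6.01 is KO high EF replicate 11, and the other 6 KO high EF hearts lay between 9.99 and 11.30, above every WT heart. With all arrays Col3a1 was 2.13 ± 0.46 higher in KO low EF hearts (adjusted p = 0.000861) and 1.31 ± 0.44 higher in KO high EF hearts (adjusted p = 0.0435). Without replicate 11 the difference in KO high EF hearts was 1.96 ± 0.16 (adjusted p = 2.77e-09). Without the 4 WT hearts with atrial markers, and with replicate 11 kept, the call in KO high EF hearts was lost (1.43, adjusted p = 0.092). The second Col3a1 probe, which was not low on that array (8.39), gave 1.33 ± 0.18 in KO low EF hearts (adjusted p = 2.24e-06) and 1.20 ± 0.17 in KO high EF hearts (adjusted p = 1.72e-05) with all arrays.

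Type V collagen, whose chains nucleate type I fibrils and limit their width, rose unevenly across its 3 chains. Col5a1 ranged from 11.92 to 12.26 in KO low EF hearts (median 12.03), from 6.01 to 12.14 in KO high EF hearts (median 11.33) and from 9.97 to 10.65 in WT hearts (median 10.34). Its only value below the WT range was again that of replicate 11. In KO low EF hearts it was 1.74 ± 0.54 higher (adjusted p = 0.018). In KO high EF hearts it was 0.40 ± 0.51 higher with all arrays, which was not called (adjusted p = 0.651), and 1.19 ± 0.12 higher without replicate 11 (adjusted p = 1.35e-07). Without the WT hearts with atrial markers its KO low EF call was lost (1.75, adjusted p = 0.0595), and it was also lost with array prefix as a block (1.47, adjusted p = 0.0973). Col5a2 was 1.67 ± 0.22 higher in KO low EF hearts (adjusted p = 1.62e-06) and 1.19 ± 0.21 higher in KO high EF hearts (adjusted p = 0.000215). Col5a3 was 0.31 ± 0.10 higher in KO low EF hearts (adjusted p = 0.0234) and 0.25 ± 0.10 higher in KO high EF hearts, which was not called (adjusted p = 0.087).

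The remaining tested fibrillar genes, which include the chains of the cartilage collagens II and XI, were dim. Their group means lay between 6.62 (Col2a1 in WT hearts) and 7.81 (Col11a2 in WT hearts), where the array median is 6.77. Col2a1 averaged 6.77 ± 0.13 in KO low EF hearts, 7.05 ± 0.32 in KO high EF hearts and 6.62 ± 0.17 in WT hearts (SD), and was called in KO high EF hearts (0.43 ± 0.10, adjusted p = 0.0053). Without replicate 11, its highest array at 7.73, that difference was 0.32 ± 0.08 (adjusted p = 0.00469). The further tested Col2a1 probe, at a mean of 6.71 where the brightest had 6.78, was not called in KO high EF hearts (0.08 ± 0.08, adjusted p = 0.55). Col11a2 had a difference of -0.21 ± 0.08 in KO low EF hearts (adjusted p = 0.0583), which was called without replicate 11 (adjusted p = 0.013). Col11a1 and Col27a1 were not called in either KO group, with differences between 0.00 and 0.16.

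**Figure D2:**
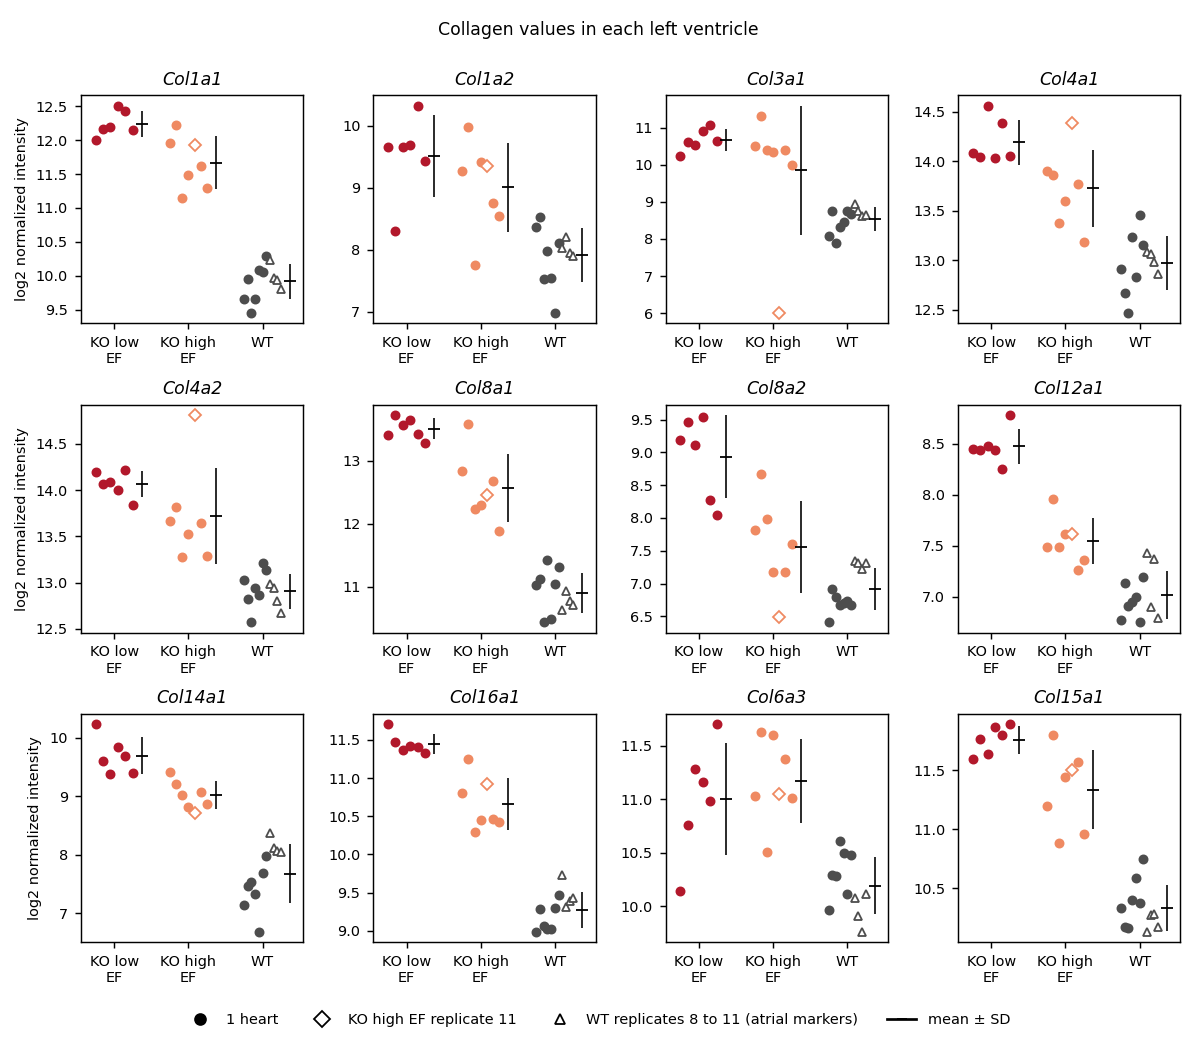
Log2 normalized intensity (y axis) of 12 collagen genes in each heart, in the order KO low EF, KO high EF and WT, with the mean and SD of each group beside its points. Diamonds are KO high EF replicate 11, which lies at 6.01 for Col3a1 and at 14.81 for Col4a2, and triangles are WT replicates 8 to 11, which had the 4 highest WT values of Col8a2 and of Col14a1.

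All 6 type IV genes were tested, and 5 rose in KO low EF hearts (class median 0.76) and 3 in KO high EF hearts (class median 0.34, and 0.29 without replicate 11). These genes lie in 3 head-to-head pairs. On GRCm38.p6 the annotated ends of Col4a1 and Col4a2 overlap by 85 bases on chromosome 8, those of Col4a3 and Col4a4 overlap by 114 bases on chromosome 1, and those of Col4a5 and Col4a6 are 1274 bases apart on chromosome X. Col4a1 and Col4a2 form the common network of all basement membranes. Col4a1 ranged from 14.03 to 14.56 in KO low EF hearts (median 14.07), from 13.19 to 14.39 in KO high EF hearts (median 13.77) and from 12.47 to 13.46 in WT hearts (median 12.98). Col4a2 ranged from 13.84 to 14.22 in KO low EF hearts (median 14.08), from 13.28 to 14.81 in KO high EF hearts (median 13.64) and from 12.57 to 13.21 in WT hearts (median 12.94). For both genes every KO low EF heart lay above every WT heart, and for Col4a2 every KO high EF heart did as well.

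In KO low EF hearts Col4a1 was 2.32-fold higher (1.22 ± 0.15, adjusted p = 6.43e-07) and Col4a2 2.24-fold higher (1.16 ± 0.15, adjusted p = 2.23e-06). In KO high EF hearts Col4a1 was 0.75 ± 0.14 higher (adjusted p = 0.000485) and Col4a2 0.81 ± 0.15 higher (adjusted p = 0.000338). The Col4a2 value of replicate 11, at 14.81, was the highest of all hearts, and without it the KO high EF difference was 0.63 ± 0.09 (adjusted p = 1.88e-05). Col4a3 and Col4a4, chains of a network best known from the kidney glomerulus, were dim. Col4a3 averaged 7.55 ± 0.44 in KO low EF hearts, 7.01 ± 0.29 in KO high EF hearts and 6.76 ± 0.13 in WT hearts (SD). It was 0.79 ± 0.14 higher in KO low EF hearts (adjusted p = 7.94e-05) and Col4a4 0.72 ± 0.19 higher (adjusted p = 0.00494), and neither was called in KO high EF hearts (0.25 and 0.05). Of the third pair, Col4a5 was 0.51 ± 0.10 higher in KO low EF hearts (adjusted p = 0.000246) and 0.42 ± 0.09 higher in KO high EF hearts (adjusted p = 0.0023). Col4a6 was not called in either (0.14 ± 0.12 and 0.09 ± 0.12). The differences of the 2 members of a pair were not tested against each other.

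Of 8 FACIT genes on the array 6 were tested, and 5 rose in KO low EF hearts (class median 1.02) and 4 in KO high EF hearts (class median 0.44). Without replicate 11, 3 rose in KO high EF hearts (class median 0.39). Col16a1, a minor fibril-associated chain, ranged from 11.33 to 11.70 in KO low EF hearts (median 11.41), from 10.30 to 11.25 in KO high EF hearts (median 10.47) and from 8.99 to 9.73 in WT hearts (median 9.30). The 3 groups did not overlap. It was 4.51-fold higher in KO low EF hearts (2.17 ± 0.12, adjusted p = 7.42e-12), and 2.62-fold higher in KO high EF hearts (1.39 ± 0.12, adjusted p = 1.94e-08). Col14a1, whose product binds the surface of type I fibrils, ranged from 9.38 to 10.23 in KO low EF hearts (median 9.65), from 8.72 to 9.41 in KO high EF hearts (median 9.03) and from 6.68 to 8.37 in WT hearts (median 7.68). Every KO heart lay above every WT heart, and the highest WT values, 8.05 to 8.37, were those of the 4 hearts with atrial markers, against 6.68 to 7.97 in the other 7. It was 2.02 ± 0.19 higher in KO low EF hearts (adjusted p = 1.85e-08) and 1.35 ± 0.18 higher in KO high EF hearts (adjusted p = 1.28e-05), and without those 4 WT hearts the differences were 2.28 and 1.61. The part of the atrial markers in these values was not tested.

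Col12a1, a partner of type I fibrils, ranged from 8.25 to 8.78 in KO low EF hearts (median 8.45), from 7.26 to 7.96 in KO high EF hearts (median 7.49) and from 6.75 to 7.43 in WT hearts (median 6.95). KO low EF hearts lay above all others, and KO high EF hearts overlapped WT hearts. It was 1.46 ± 0.11 higher in KO low EF hearts (adjusted p = 5.24e-10) and 0.53 ± 0.10 higher in KO high EF hearts (adjusted p = 0.000951). Col22a1, known at muscle-tendon junctions, was 0.59 ± 0.18 higher in KO low EF hearts (adjusted p = 0.0184) and differed by 0.03 ± 0.18 in KO high EF hearts (adjusted p = 0.943). Col9a2, a cartilage chain, was 0.48 ± 0.12 higher in KO low EF hearts (adjusted p = 0.00321) and 0.35 ± 0.11 higher in KO high EF hearts (adjusted p = 0.0354), a call that was lost without replicate 11 (0.26, adjusted p = 0.0664). Col9a1 was not called in either group.

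Both tested short-chain genes, the 2 chains of type VIII collagen, rose in KO low EF hearts, with the largest class median of the family, 2.31, over only 2 genes. In KO high EF hearts 1 was called (median 1.15), and both without replicate 11 (median 1.26). Col8a1 ranged from 13.28 to 13.72 in KO low EF hearts (median 13.49), from 11.89 to 13.58 in KO high EF hearts (median 12.45) and from 10.44 to 11.42 in WT hearts (median 10.94). Every KO heart lay above every WT heart. Col8a1 had the largest difference of all collagens in KO low EF hearts, 6.08-fold (2.60 ± 0.18, adjusted p = 1.4e-10), and was 3.17-fold higher in KO high EF hearts (1.67 ± 0.17, adjusted p = 3.11e-07). Col8a2 ranged from 8.04 to 9.54 in KO low EF hearts (median 9.15), from 6.49 to 8.67 in KO high EF hearts (median 7.61) and from 6.41 to 7.34 in WT hearts (median 6.80). KO low EF hearts did not overlap WT hearts, whereas KO high EF hearts did. It was 2.02 ± 0.25 higher in KO low EF hearts (adjusted p = 1.12e-06). In KO high EF hearts it was 0.64 ± 0.24 higher, which was not called (adjusted p = 0.0831). The lowest KO high EF value was that of replicate 11, and the 4 highest WT values, 7.23 to 7.34, were those of the hearts with atrial markers. Without replicate 11 the KO high EF difference was 0.83 ± 0.22 (adjusted p = 0.0079), and without those 4 WT hearts it was 0.85 (adjusted p = 0.0474).

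The 3 tested genes of the beaded filament class, the main chains of type VI collagen, rose in both KO groups, with class medians of 1.51 (KO low EF hearts) and 1.23 (KO high EF hearts, 1.15 without replicate 11). Col6a1 ranged from 12.85 to 13.09 in KO low EF hearts (median 12.98), from 12.13 to 12.88 in KO high EF hearts (median 12.70) and from 10.73 to 11.68 in WT hearts (median 11.44), so every KO heart lay above every WT heart. It was 1.60 ± 0.13 higher in KO low EF hearts (adjusted p = 1.04e-09) and 1.23 ± 0.12 higher in KO high EF hearts (adjusted p = 1.75e-07). Col6a2 was 1.51 ± 0.16 higher in KO low EF hearts (adjusted p = 1.13e-07) and 1.29 ± 0.16 higher in KO high EF hearts (adjusted p = 2.39e-06). Col6a3 was the 1 gene of the 23 with a lower estimate in KO low EF than in KO high EF hearts. It ranged from 10.14 to 11.70 in KO low EF hearts (median 11.07), from 10.51 to 11.63 in KO high EF hearts (median 11.05) and from 9.76 to 10.61 in WT hearts (median 10.11). Its lowest KO value, 10.14, was that of KO low EF replicate 1, the heart with the lowest EF (13.7%). It was 0.81 ± 0.18 higher in KO low EF hearts (adjusted p = 0.00142) and 0.98 ± 0.17 higher in KO high EF hearts (adjusted p = 0.00029), and the difference between the KO groups was not called (-0.17 ± 0.20, adjusted p = 0.73).

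Both multiplexins, basement membrane proteoglycans that carry collagen domains, rose in both groups. Col15a1, which lies where the basement membrane meets the fibres, was 1.43 ± 0.12 higher in KO low EF hearts (adjusted p = 1.59e-09) and 1.01 ± 0.11 higher in KO high EF hearts (adjusted p = 6.8e-07). Col18a1, whose product yields endostatin, was 0.85 ± 0.10 higher in KO low EF hearts (adjusted p = 6.09e-07) and 0.49 ± 0.10 higher in KO high EF hearts (adjusted p = 0.000992). The anchoring fibril gene Col7a1, the transmembrane collagens Col23a1 and Col25a1, and Col26a1 were not called in either group, with differences between -0.11 and 0.33. Each of the 10 genes not called in KO low EF hearts had a mean under 8 over all arrays, as did 8 of the 23 that were called.

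Several probes of a gene did not always give the same size. Of the 12 called genes with more than 1 tested probe, 13 of 15 further probes also rose in KO low EF hearts, and 14 of the 15 gave a smaller difference than the brightest probe. The further Col8a2 probe gave 0.49 ± 0.10 (adjusted p = 0.000443) beside 2.02 for the brightest, and the further Col12a1 probe 0.55 ± 0.09 (adjusted p = 5.35e-05) beside 1.46. The 2 further probes that were not called belong to Col6a3 (0.24 and 0.16), and they had means of 6.97 and 6.72, against 10.68 for the brightest. Of the genes that were not called, Col27a1 had a second probe that rose (0.41 ± 0.09, adjusted p = 0.0012), at a mean of 7.07 where the brightest had 7.08. No tested probe of Col11a1, Col11a2, Col2a1, Col23a1 or Col25a1 was called in KO low EF hearts by limma, with differences of -0.21 to 0.15.

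**Figure D3:**
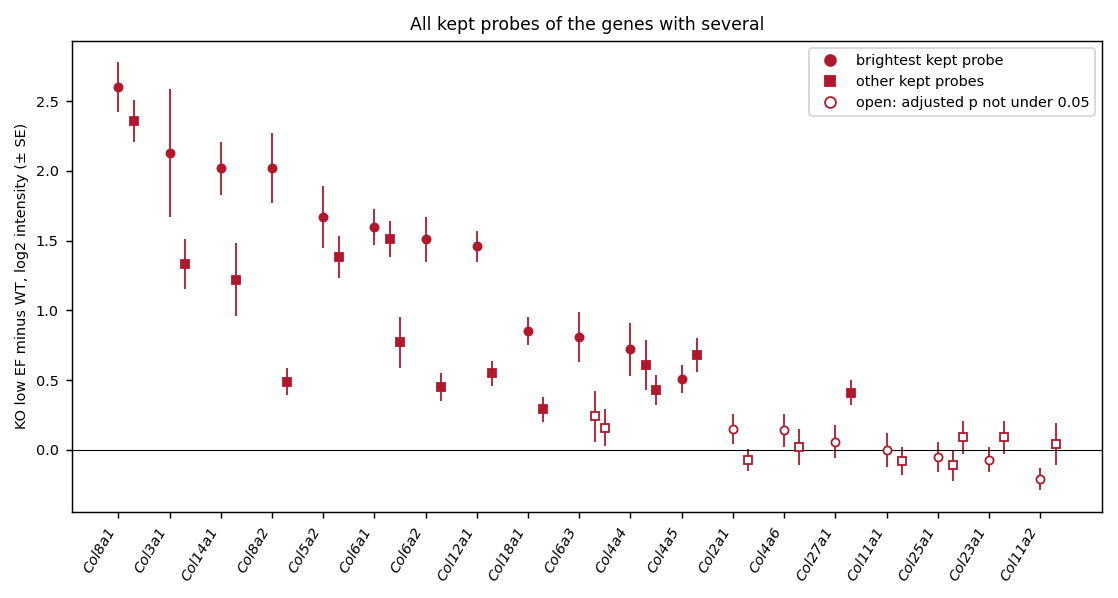
KO low EF minus WT difference in log2 intensity (y axis, limma estimate ± SE) for all tested probes of the 19 collagen genes with more than 1, ordered by the difference of the brightest probe (circles), with squares for the further probes and open symbols where the adjusted p is not under 0.05. The further probes of Col8a2 and Col12a1 rose by 0.49 and 0.55, below the 2.02 and 1.46 of their brightest probes.

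KO low EF hearts were then set against KO high EF hearts. Among the 33 collagens 6 were higher in KO low EF hearts and 0 lower, where 1.18% of all genes tested were higher and 2.29% lower. They were Col8a2 (1.38 ± 0.28, adjusted p = 0.00855), Col8a1 (0.94 ± 0.20, adjusted p = 0.0112), Col12a1 (0.93 ± 0.12, adjusted p = 0.000328), Col16a1 (0.79 ± 0.14, adjusted p = 0.00304), Col1a1 (0.58 ± 0.16, adjusted p = 0.0422) and Col4a3 (0.54 ± 0.15, adjusted p = 0.049). Each was higher in KO low EF hearts within all 3 array prefixes that hold both groups, a description only, since the same arrays chose the genes. With the prefix as a block 4 stayed called, while Col1a1 (0.58, adjusted p = 0.126) and Col4a3 (0.55, adjusted p = 0.158) did not. The share of all genes called was not taken for that fit. Only Col12a1 and Col16a1 had no overlap between the groups, where 0.512% of all genes had none in that direction. All of these are values of the brightest probes. For the further Col8a2 probe the KO groups lay closer together, at 7.14 to 7.68 (low EF) and 6.92 to 7.45 (high EF). The brightest Col8a2 probe had 8.04 to 9.54 and 6.49 to 8.67. The further Col12a1 probe had 7.07 to 7.71 and 6.82 to 7.12, and the further Col8a1 probe 12.01 to 12.36 and 10.96 to 12.41. By class, 2 of 2 short-chain, 2 of 6 FACIT, 1 of 10 fibrillar, 1 of 6 type IV and 0 of 3 beaded filament genes were called, with class medians of 1.16, 0.62, 0.27, 0.41 and 0.22. Without replicate 11 the same classes had 2, 2, 2, 3 and 0 calls, with class medians of 1.07, 0.57, 0.17, 0.52 and 0.36. Differences between classes were not tested.

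The count depended on KO high EF replicate 11. Without it 11 collagens were higher in KO low EF hearts, where 2.48% of all genes were higher and 2.77% lower, and the 5 added were Col4a1 (0.57 ± 0.14), Col4a2 (0.53 ± 0.11), Col5a1 (0.55 ± 0.14), Col15a1 (0.45 ± 0.13) and Col18a1 (0.43 ± 0.10). Col4a1 and Col4a2 then had no overlap between the KO groups either, where 0.965% of all genes had none. The Col5a1 difference was 1.34 ± 0.59 with all arrays and not called (adjusted p = 0.288). For Col3a1 the difference was 0.82 ± 0.50 with all arrays (adjusted p = 0.488) and 0.18 ± 0.18 without replicate 11 (adjusted p = 0.76). Median scaling in place of quantile normalization left 1 of the 6 calls, Col12a1, and the share of all genes called was not taken there. Without the WT hearts with atrial markers 4 collagens were called (0.775% of all genes higher and 1.42% lower), the calls of Col1a1 (adjusted p = 0.0794) and Col4a3 (adjusted p = 0.0973) being lost. Without those hearts and replicate 11 there were 11 (2.04% higher and 2.18% lower). That set differed from the 11 without replicate 11 alone: Col14a1 was called (0.63, adjusted p = 0.0461) and Col15a1 was not (0.45, adjusted p = 0.0629).

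**Figure D4:**
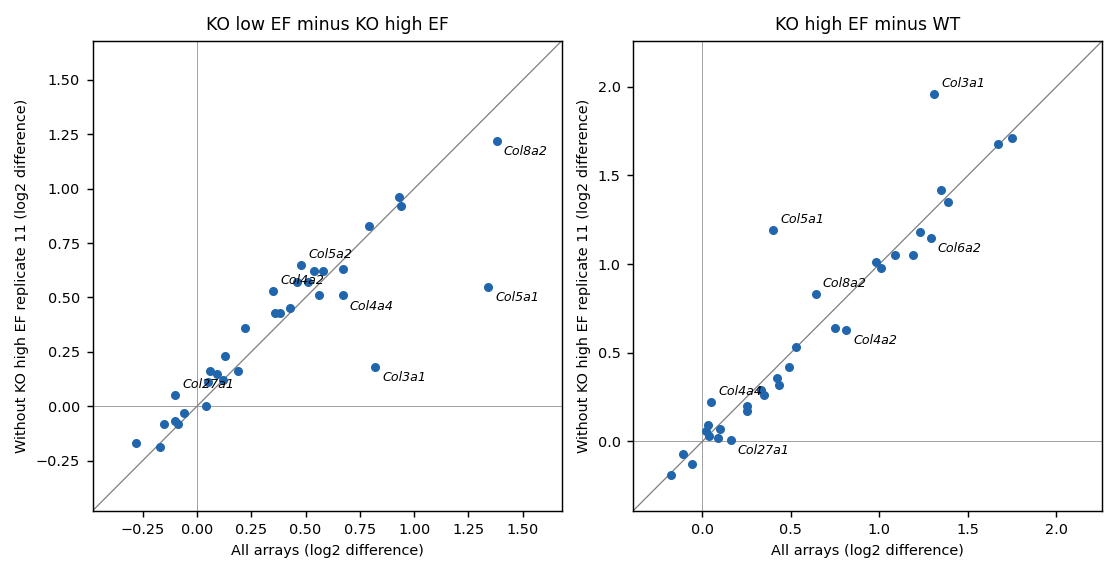
Log2 differences of the 33 collagen genes without KO high EF replicate 11 (y axis) against those with all arrays (x axis), for KO low EF minus KO high EF (left) and KO high EF minus WT (right), with the line of equality. Col3a1 and Col5a1 lie farthest from the line: Col5a1 was at 1.34 with all arrays and 0.55 without that array on the left, and at 0.40 and 1.19 on the right.

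EF was also fitted as a number within the 13 KO hearts, which hold the same contrast without the division into 2 groups and are not separate evidence. With all arrays 5 collagens fell with rising EF and 0 rose, where 0.884% of all genes fell and 1.59% rose. Per 10 points of EF, Col8a2 fell by 0.42 (SE 0.08, adjusted p = 0.0232), Col8a1 fell by 0.29 (SE 0.05, adjusted p = 0.012), Col12a1 fell by 0.24 (SE 0.04, adjusted p = 0.012), Col16a1 fell by 0.23 (SE 0.04, adjusted p = 0.0119) and Col14a1 fell by 0.21 (SE 0.03, adjusted p = 0.0123). Without replicate 11 those 5 and a further 8 collagens were called, where 3.23% of all genes fell and 3.55% rose: Col1a1, Col5a1, Col4a1, Col4a2, Col4a3, Col4a4, Col6a1 and Col18a1, with slopes of -0.20 to -0.13. Col3a1 and Col6a3 were not called with or without that array (Col3a1 -0.26 ± 0.18 and -0.07 ± 0.05, Col6a3 0.07 ± 0.06 and 0.08 ± 0.06). With array prefix as a block 0 collagens were called with all arrays and 8 without replicate 11, and the share of all genes called was not taken there.

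**Figure D5:**
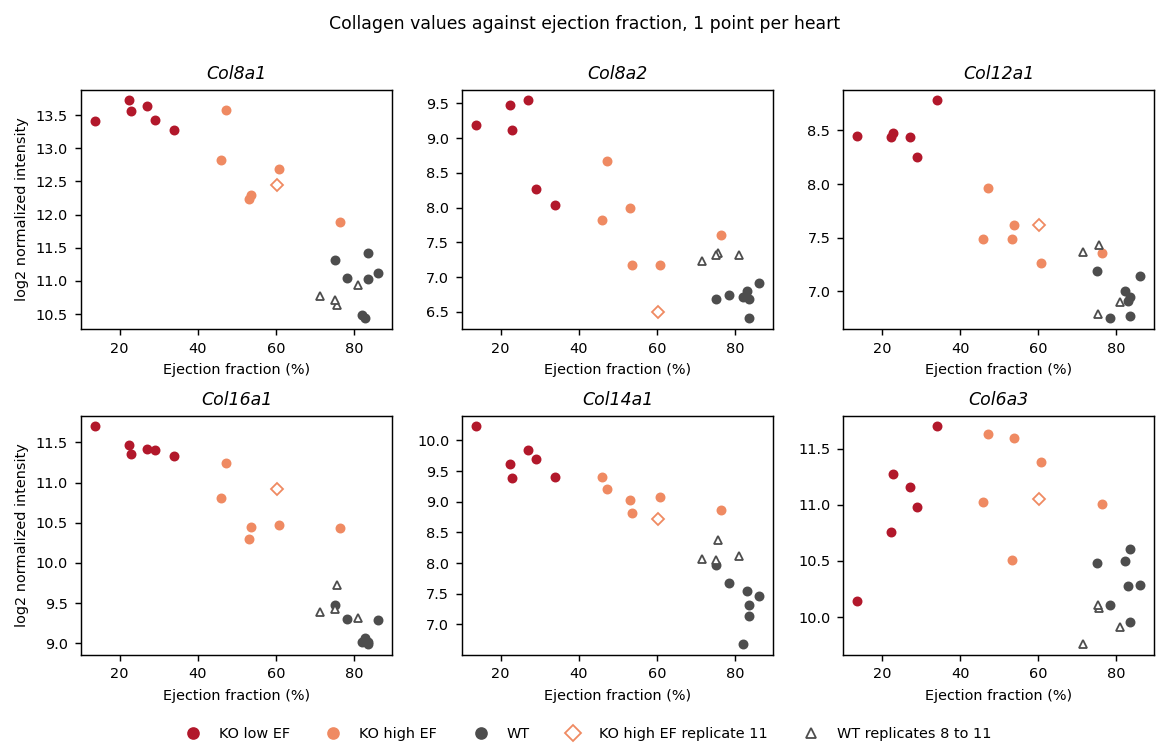
Log2 normalized intensity (y axis) against ejection fraction in percent (x axis) for Col8a1, Col8a2, Col12a1, Col16a1, Col14a1 and Col6a3, with 1 point per heart coloured by group, diamonds for KO high EF replicate 11 and triangles for WT replicates 8 to 11. Within the KO hearts the first 5 genes are lower at higher EF and Col6a3 is not, its lowest KO value of 10.14 being at the lowest EF.

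Single hearts were compared over the 23 genes called in KO low EF hearts, by how many of them exceeded the highest WT value. KO low EF hearts had 20 to 23 of the 23 above it, a description only, since these hearts chose the genes. Of the 2082 genes that rose in KO low EF hearts, 78 to 84.8% exceeded their highest WT value in a given KO low EF heart. The KO high EF hearts had 15 to 22 of the 23, where 44.9 to 75.2% of the 2082 genes did so. KO high EF replicate 13, whose EF of 76.4% lies within the WT range, had 16 of 23 (69.6%), where 44.9% of the 2082 genes did so. KO high EF replicate 8 (EF 47.2%) had 22 of 23 (95.7%), where 75.2% of the 2082 genes did so. It held the highest KO high EF value in 12 of the 23 genes, a count not taken over all genes.

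Genes that make, assemble and degrade collagen were examined as lists. Their counts are to be read against the 15.2% of all genes that rose and 13.5% that fell in KO low EF hearts. For KO high EF hearts the shares were 10.8% and 6.58%. Without replicate 11 the shares were 20.3% and 18.6% in KO low EF hearts, and 11.8% and 10.4% in KO high EF hearts. Of 19 tested genes for folding and modifying the chains, 9 rose and 0 fell in KO low EF hearts (median 0.55), and 7 rose and 1 fell in KO high EF hearts (median 0.20). Without replicate 11, 13 rose and 1 fell in KO low EF hearts and 9 rose and 1 fell in KO high EF hearts, the gene that fell being P3h4 (-0.56, adjusted p = 1.71e-05, and -0.54, adjusted p = 8.57e-05). P3h2, a prolyl 3-hydroxylase, was 1.23 ± 0.13 higher in KO low EF hearts (adjusted p = 1.23e-07) and Ppib, a folding catalyst, 0.74 ± 0.08 higher (adjusted p = 6.57e-08). Of 18 genes for processing procollagen and for assembling and crosslinking fibrils, 16 rose in KO low EF hearts (median 1.18) and 10 in KO high EF hearts (median 0.59, with 14 rising and a median of 0.78 without replicate 11), and 0 fell in either. Adamts2, which removes the amino-terminal propeptide of fibrillar procollagens, was 2.29 ± 0.14 higher in KO low EF hearts and 1.60 ± 0.14 higher in KO high EF hearts. Lox, a lysyl oxidase that crosslinks fibrils, averaged 11.50 in KO low EF hearts, 9.64 in KO high EF hearts and 7.91 in WT hearts, with differences from WT of 3.59 ± 0.47 and 1.73 ± 0.45. Its lowest KO high EF value, 5.90, was that of replicate 11, and without it the KO high EF difference was 2.37 ± 0.22. Of 15 genes of collagen degradation and its inhibitors, 7 rose and 1 fell in KO low EF hearts (median 0.53), and 6 rose and 2 fell in KO high EF hearts (median 0.29). Without replicate 11, 8 rose and 2 fell in KO low EF hearts (median 0.53), and 7 rose and 2 fell in KO high EF hearts (median 0.47). Timp1, an inhibitor of collagenases, was 4.03 ± 0.38 higher in KO low EF hearts and 3.59 ± 0.37 higher in KO high EF hearts. Ctsk, a collagen-degrading cathepsin, was 1.47 ± 0.10 and 1.06 ± 0.09 higher. The metalloproteinase genes Mmp14 (1.43 ± 0.16 and 0.92 ± 0.16) and Mmp2 (1.38 ± 0.17 and 0.93 ± 0.16) also rose. Mmp13, a collagenase, fell by 0.59 and 0.52. Its means of 6.78 (KO low EF), 6.85 (KO high EF) and 7.37 (WT) lay near the array median of 6.77.

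Most fibroblast and macrophage markers were higher in both KO groups than in WT hearts. All marker counts are to be read against the 15.2% of all genes that rose and 13.5% that fell in KO low EF hearts. In KO high EF hearts those shares were 10.8% and 6.58%. Without replicate 11 they were 20.3% and 18.6% in KO low EF hearts, and 11.8% and 10.4% in KO high EF hearts. Of 15 fibroblast markers 11 rose and 1 fell in KO low EF hearts, and 10 rose in KO high EF hearts. The mean over that list ranged from 10.69 to 10.96 in KO low EF hearts, from 10.25 to 10.81 in KO high EF hearts (lowest in replicate 11) and from 9.99 to 10.27 in WT hearts. Pi16, a fibroblast gene, was 2.08 ± 0.16 higher in KO low EF hearts, and Pdgfra, a general fibroblast marker, 0.52 ± 0.10 higher. Of 11 macrophage markers 10 rose in KO low EF hearts and 9 in KO high EF hearts, with list means of 10.61 to 10.78, 10.20 to 10.76 and, in WT hearts, 9.43 to 9.85. None of 10 endothelial markers was called by limma in either group (at an unadjusted p under 0.05, 2 were lower in KO low EF hearts and 1 in KO high EF hearts), with list means of 11.01 to 11.25 in KO low EF hearts, 9.67 to 11.06 in KO high EF hearts and 10.98 to 11.20 in WT hearts. The value of 9.67 was that of replicate 11, and without that array Vwf rose (0.83) and Tie1 fell by 0.20 in KO low EF hearts, and Pecam1 fell by 0.21 in KO high EF hearts (adjusted p = 0.0433). Of 8 tested cartilage, tendon and valve genes 5 rose in KO low EF hearts and 4 in KO high EF hearts. In KO low EF hearts Scx (1.33), Sox9 (1.88), Prg4 (2.48) and Comp (4.39) rose with the smallest p. Chad (-0.25), Acan and Tnmd were not called, and Acan and Tnmd stayed near the array median (group means 6.52 to 6.80). In the 4 WT hearts with atrial markers Comp was at 9.95 to 10.53 and Chad at 7.95 to 8.41. The other 7 WT hearts had 7.08 to 7.72 and 6.21 to 6.56, so the WT means of both genes depend on those 4 hearts. The Comp and Chad differences without those hearts were not taken. Of 7 cardiomyocyte genes 3 fell in KO low EF hearts and 2 in KO high EF hearts. The part of cell composition in the collagen differences was not tested.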

How the data were processed

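Left ventricle RNA of 24 mice was hybridised to 1 Illumina array each. Unnormalized probe intensity was deposited by the authors, together with their own normalized log2 values and a summary table of group means, SDs (their other values) and p-values. BeadStudio and R 2.8.0 are named in the submitters' processing notes, and no label or header describes further steps. The unnormalized intensities were background-corrected (normexp, offset 50), log2-transformed and quantile-normalized with limma 3.58.1 in R 4.3.3. Probes above their array's median on at least 6 arrays were kept, 25425 of 45281. The number of hearts limits the precision. 3 group means were fitted over all 24 arrays with lmFit and eBayes, and a slope per 10 points of EF over the 13 KO arrays, both tested two-sided with Benjamini-Hochberg adjustment over all kept probes and a threshold of 0.05. Each gene stands by its brightest kept probe, which gave 13683 genes. The fit was tested on simulated data.

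Of all probes, 34885 carried 1 symbol in the platform annotation, 18 carried several, 2359 more were named through the authors' table, which was matched to probes by its means and SDs, and 8019 had no name. Named with values are collagens called in KO low EF hearts, the main chains of types I, III, IV and VIII, genes whose probes differ in call or sign, and of each further list up to 4 genes with the smallest p, beside genes named for a single point after their values were seen. The members and all lists were chosen with earlier results of these data known. Replicate numbers shared by KO and WT labels were not taken as pairs in the main fit: correlations of deviations ran from -0.01 to 0.18 over 11 numbers, which cannot exclude pairing. Alternatives changed the filter, normalization, background correction, starting values, probe choice, array weights, blocks, age and the arrays left out. Leaving out the 4 WT arrays with atrial markers (Myl7 above 9), and age without replicate 11, were chosen after seeing the data. Nothing states that replicates were other than separate mice.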

Additional observations from a re-analysis of the deposited data

Results flagged for a closer look

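The named collagens were examined by Dixon's test for hearts far from the rest of the KO low EF or KO high EF group, in 58 groups of values, of which chance would give about 1 in 20. There were 8 such values, 5 of them from KO high EF replicate 11. That heart was the lowest of its group for Col3a1 (6.01) and Col5a1 (6.01), and the highest for Col4a2 (14.81), Col27a1 (8.08) and Col2a1 (7.73). KO high EF replicate 8 was the lowest of its group for Col11a1 (6.76) and the highest for Col22a1 (7.49). KO low EF replicate 6 was the lowest of its group for Col2a1 (6.52). Col11a1, Col27a1 and Col2a1 lay near the array median in all groups. Col22a1 did so in KO high EF and WT hearts (means 6.78 and 6.75), and averaged 7.34 in KO low EF hearts. The cause of these values was not tested.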

How the results depend on the processing

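The counts against WT hearts stayed within 1.5 times the reported ones under every alternative tried, at 22 to 25 collagens called in KO low EF hearts and 14 to 20 in KO high EF hearts. No called difference changed sign. Among differences that were not called, 4 genes changed sign in KO high EF against WT hearts: Col4a4 (-0.04) and Col22a1 (-0.15) with a replicate block, Col22a1 with array weights (-0.03), Col25a1 with the array prefix block (-0.02, and -0.03 without replicate 11, where leaving out that array alone gave 0.03), without the WT hearts with atrial markers (-0.06) and without those and replicate 11 (-0.07), and Col27a1 with the prefix block without replicate 11 (-0.01) and without those WT hearts and replicate 11 (-0.02). Between the KO groups 4 did: Col4a5 with a replicate block (-0.05), Col6a3 with median scaling (0.02), Col23a1 with array weights (-0.03) and the prefix block (-0.02, and -0.04 without replicate 11), and Col27a1 without replicate 11 (0.05), with array weights (0.02), median scaling (0.01), the prefix block without replicate 11 (0.07) and without the WT hearts with atrial markers and replicate 11 (0.05). The counts between the KO groups moved further. The share of all genes called was not taken with array weights, median scaling, a block or age as a covariate. Nor was it taken with no background correction, the authors' normalized values, a filter of at least 12 arrays or the smallest-p probe. Those counts, and the ones against WT hearts from the same alternatives, cannot be set against all genes. With no filter, 115 of all 20175 genes were higher and 222 lower in KO low EF than in KO high EF hearts. For the slope on EF, 158 rose and 97 fell there. For KO low EF against KO high EF hearts (6 genes), 11 were called without KO high EF replicate 11, 15 with array weights, 1 with median scaling, 0 with a replicate block and 11 without the WT hearts with atrial markers and replicate 11, and the other alternatives gave 4 (no filter, the prefix block, and without the WT hearts with atrial markers) to 9. For the slope on EF (5 genes), 13 were called without replicate 11, 14 with array weights, 0 with median scaling, 0 with array prefix as a fixed block, 8 with that block without replicate 11, and 14 with age as a covariate without replicate 11, while the others gave 5 to 7. The replicate block left 22 and 14 calls against WT. Of 11 shared numbers 2 had a correlation over 0.1, and 1 KO array was closest to the WT array of its own number. Such low correlations cannot exclude that the numbers mark pairs. Among single genes, Col9a2 lost its KO high EF call under 9 alternatives and Col3a1 under 4, while Col8a2 gained one under 6 and Col5a1 under 4. The cause of these shifts was not tested. Signal over background limits the dim probes: 18 of the 33 tested genes averaged under 8, where the array median is 6.77.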

Other observations

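Genes that bind collagen or share its basement membranes were also measured. Of 8 tested collagen receptor genes, 3 rose in KO low EF hearts and 4 in KO high EF hearts, where 15.2% and 10.8% of all genes rose. Without KO high EF replicate 11, 5 rose in KO low EF hearts (20.3% of all genes) and 4 in KO high EF hearts (11.8%). Itga11, the integrin chain through which fibroblasts bind fibrillar collagen, averaged 9.72 in KO low EF hearts, 9.16 in KO high EF hearts and 8.55 in WT hearts, with a difference from WT of 1.18 ± 0.15 in KO low EF hearts (adjusted p = 9.1e-07 in limma). Ddr1, a receptor tyrosine kinase for collagen, was 0.97 ± 0.11 higher in KO low EF hearts (adjusted p = 2.62e-07) and 0.51 ± 0.11 higher in KO high EF hearts (adjusted p = 0.00131).

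Of 12 other basement membrane genes, 5 rose and 1 fell in KO low EF hearts, where 15.2% of all genes rose and 13.5% fell. In KO high EF hearts 5 rose, where 10.8% of all genes rose and 6.58% fell. Without replicate 11, 6 rose and 1 fell in KO low EF hearts (20.3% of all genes rose and 18.6% fell). In KO high EF hearts 5 then rose and 1 fell (11.8% of all genes rose and 10.4% fell). Sparc, a collagen-binding matrix protein, was 1.49 ± 0.12 higher in KO low EF hearts (adjusted p = 8.07e-10). Lamc1, the common gamma chain of laminins, was 0.68 ± 0.09 higher (adjusted p = 1.03e-06), and Nid1, which links laminin to type IV collagen, 0.61 ± 0.13 higher (adjusted p = 0.000709). Lama5, a laminin alpha chain, fell by 0.67 (SE 0.19, adjusted p = 0.00978).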
